A study of Homo sapiens with 24 samples.

Results

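The 36 genes described here encode subunits of mitochondrial complex I (NADH:ubiquinone oxidoreductase) that are carried on nuclear chromosomes, all with names that begin with NDUF. They were taken by name from the 57500 gene identifiers of the count files, and the rule itself uses no measured value, although the set was chosen with earlier results of these data known. All 36 were found, and all 36 passed the filter on low counts in every comparison. The cells were H2052, an established human line grown from a pleural mesothelioma, a cancer that arises in the membrane around the lungs, and the labels name no genetic change made to them.

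Cells received 20 nM of an RNA mimic with biotin on its 3′ end, delivered with Lipofectamine RNAiMAX. In 1 arm the mimic was miR-497-5p, written miR-497-5p-RE in the labels with a suffix that the sources used here do not explain. In the other arm, called Control, it was a scrambled sequence meant to have no targets, so the Control cells also carried a biotinylated mimic and the transfection reagent. Cells of both arms were collected 12 h and 72 h after transfection. RNA isolated in parallel, the input, was sequenced as RNA-seq, and RNA that came down with the biotin on streptavidin beads from a cytoplasmic extract was sequenced as Pull-down. That gave 8 groups of 3 libraries and 24 libraries in all: miR-497-5p-RE and Control, at each time, in each assay. The labels do not say that the 3 libraries of a group came from separate cultures, so the p-values below measure the spread between these libraries, which may be technical.

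Complex I is the entry point of the respiratory chain. It takes electrons from NADH, passes them along iron-sulfur clusters to ubiquinone, and pumps protons across the inner mitochondrial membrane. Its peripheral arm in the matrix holds the catalytic core, its membrane arm pumps the protons, and a shell of accessory subunits surrounds both. The subunits named MT-ND are encoded by mitochondrial DNA, so the complex is built from transcripts made in 2 compartments. A microRNA acts by pairing its seed, bases 2 to 8, with matching sites that lie mostly in the 3′ UTR of target mRNAs. Those mRNAs are then degraded faster or translated less.

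The mature miR-497-5p of RefSeq (GRCh38.p14, chr17:7017979-7017999, minus strand) is shown because it is the agent tested, with its seed in capitals.
hsa-miR-497-5p: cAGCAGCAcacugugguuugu

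Sites for that seed were rare among the 36 genes. Searching the longest 3′ UTR annotated for every gene, TGCTGCT (a match to the whole seed, called 7mer-m8) or TGCTGCTA (an 8mer) was present in 3 of 36 members, 8.3%, against 26.2% of the 13947 protein-coding genes tested in RNA-seq. With the shorter matches GCTGCTA (7mer-A1) and GCTGCT (6mer) included, 7 members held a site, 19.4%, against 47.5% of those genes. The members' 3′ UTRs were shorter, with a median of 388.5 bases against 1510.0 bases for those genes. The sites of NDUFS7 and NDUFA11, of those 3, are printed as examples of where miR-497-5p could pair directly, and nothing is drawn from them about how members with a site changed. The match is in capitals, and each line is a window on the mRNA strand of GRCh38 taken from GENCODE release 44.
NDUFS7, chr19:1394669-1394697, plus strand: cctgcggactgTGCTGCTccctccctgcg
NDUFA11, chr19:5896281-5896309, minus strand: acagctgctgcTGCTGCTtaagcacctac

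In NDUFA11 the match lies in a GCT repeat that holds 3 overlapping copies of it, of which the last is shown. All values ± are standard errors of the fit unless an SD is named, and every log2 value is miR-497-5p-RE over Control.

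Pull-down libraries held between 8262425 and 30650982 counts, with miR-497-5p-RE replicate 2 at 72 h lowest, and RNA-seq libraries between 21561816 and 30602007. The Pull-down also varied more, with a common biological coefficient of variation of 0.3491, against 0.06007 for RNA-seq. Of the mesothelial markers, keratins and vimentin were strongly expressed, while CALB2 stayed under 6 CPM in every library and UPK3B did not pass the filter. Levels of MSLN, WT1, PDPN and LRRN4, also on that list, are not given, and the identity of the cells rests on the labels. Markers of squamous epithelium, a list of 15 genes, stood apart at 12 h. Their summed level in RNA-seq was 699.5, 21.1 and 59.6 CPM in the 3 miR-497-5p-RE libraries and 490.3, 521 and 166 CPM in the 3 Control libraries. In the Pull-down it was 665, 388 and 45 CPM in the miR-497-5p-RE libraries and 24.3, 144 and 462 CPM in the Control libraries. At 72 h the sum stayed under 8 CPM in all 12 libraries. The part of this in the 12 h results was not tested, and the counts and medians of members at 12 h are given below also with each library left out. CPM here is the share of a library's counts, on the usual CPM scale, after TMM corrected the library totals for composition.

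Levels can be set side by side between genes only per length. Over the 12 RNA-seq libraries, NDUFS5, which bears paired cysteine motifs typical of intermembrane-space proteins, was the most abundant at 252 CPM per exonic kilobase, with libraries from 190.3 to 294. NDUFB7, of the same fold, followed with 169 and the accessory subunit NDUFS6 with 166. At the low end, NDUFA7 had 3.35, NDUFA9 3.22 and NDUFS1, the largest subunit, 3.19 CPM per exonic kilobase. Every neighbouring pair in this order had overlapping library ranges. With library totals in place of TMM, NDUFS6 and NDUFB7 changed places, as did NDUFA7 and NDUFA9. Exonic length here is the union over all annotated transcripts, which understates the level of genes with long, rarely used exons such as NDUFS1 (12268 bases).

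The nuclear transcripts of complex I were moderately higher with miR-497-5p-RE at 12 h and clearly lower at 72 h, and at 72 h they were lower still in the Pull-down. Their summed level in RNA-seq at 12 h was 3261 ± 106 CPM in miR-497-5p-RE libraries and 2915 ± 28.6 CPM in Control libraries (SD, n = 3 each), a ratio of 1.12. In RNA-seq at 72 h it was 2370.0 ± 64 CPM with miR-497-5p-RE against 3334 ± 19.9 CPM in Control, a ratio of 0.711. At 12 h the Pull-down sums were 4831 ± 218 CPM with miR-497-5p-RE and 5249 ± 149 CPM in Control. At 72 h they were 3597 ± 127 CPM with miR-497-5p-RE and 6928 ± 97.9 CPM in Control, a ratio of 0.519. Libraries of the arms did not overlap in any of these 4 TMM-scaled sums. In the Pull-down at 12 h the members' raw shares of all counts did overlap. They were 0.5673%, 0.5818% and 0.6026% with miR-497-5p-RE and 0.5977%, 0.5789% and 0.6079% in Control. In raw counts, the members took 0.2046% to 0.2123% of all RNA-seq counts with miR-497-5p-RE at 72 h, against 0.3128% to 0.3159% in Control. Because library values are shares of the RNA sequenced, less of a transcript per cell and more of other RNA cannot be told apart, nor can fewer cells of a kind and less RNA per cell.

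**Figure D1:**
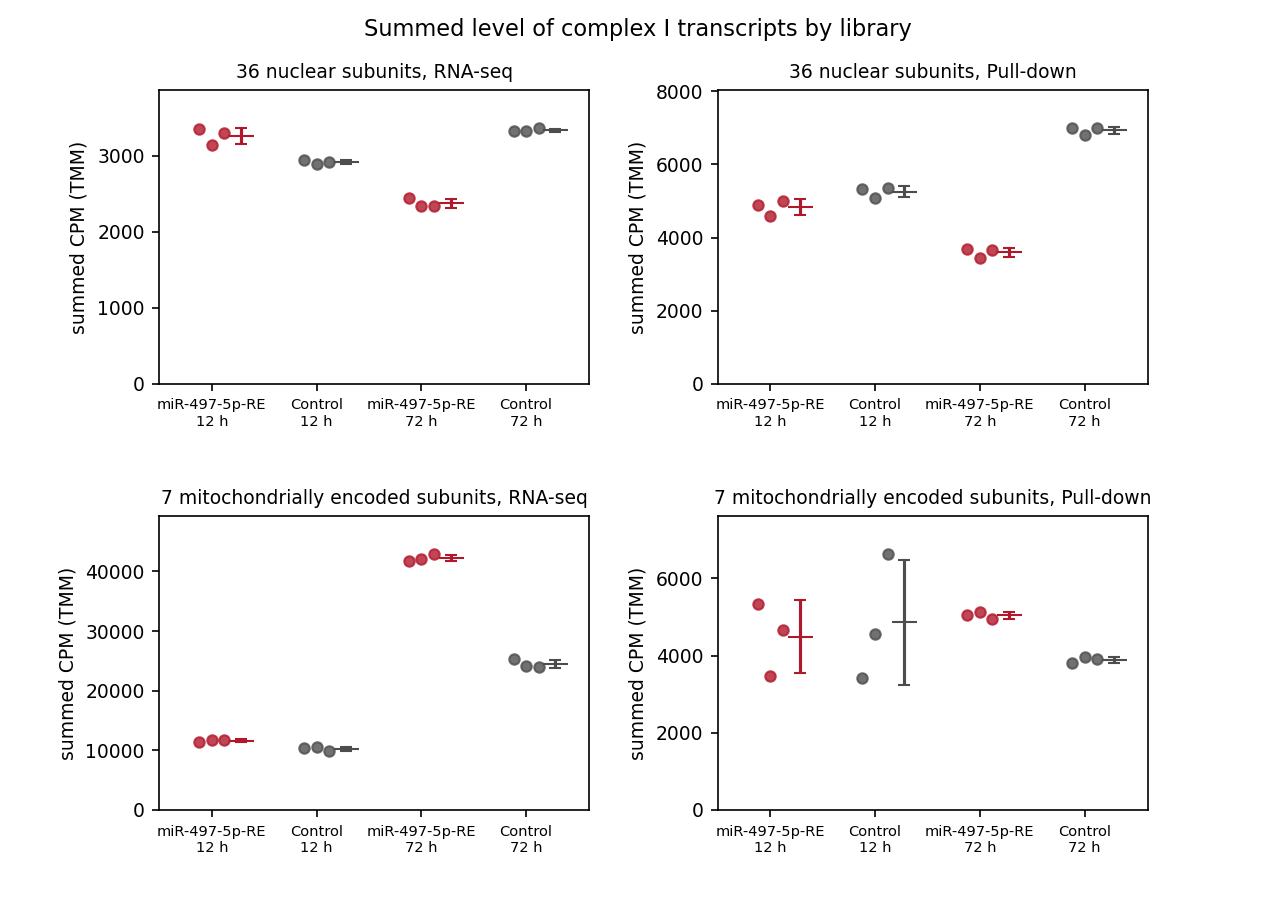
Summed TMM-scaled CPM of the 36 nuclear subunits (upper panels) and of the 7 mitochondrially encoded subunits (lower panels) in RNA-seq and Pull-down; points are libraries, and the bar beside them is the mean ± SD of 3 libraries. At 72 h the nuclear sum was 2370.0 CPM with miR-497-5p-RE and 3334 CPM in Control RNA-seq, while the mitochondrial sum was 42250.1 CPM with miR-497-5p-RE and 24463 CPM in Control.

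In RNA-seq at 12 h, 21 of 36 members rose, none fell and 15 did not pass, by edgeR's quasi-likelihood test with Benjamini-Hochberg adjustment at 0.05. Over all 17335 genes tested, 7.25% rose and 5.3% fell. The members' median log2 fold change was 0.16, against 0.01 for all genes, and the members ran from -0.12 to 0.36. With 1 library left out the median lay between 0.15 and 0.19. At an unadjusted p under 0.05 there were 31 members, of which NDUFS1 alone had a negative value. Libraries of the arms did not overlap for 29 members with miR-497-5p-RE above and for NDUFS1 with it below, against 13.8% and 11.9% of all genes. The rises were many and small.

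NDUFB2, a small subunit of the distal membrane arm, had 84.6, 70.8 and 78.2 CPM in the miR-497-5p-RE libraries at 12 h and 65.2, 60.9 and 64.1 CPM in the Control libraries (log2 0.29 ± 0.05, adjusted p = 2.9e-05). NDUFA6, a protein of the LYR family that holds the acyl carrier subunit in the peripheral arm, had 124, 119.7 and 126 CPM with miR-497-5p-RE and 108, 102 and 104 CPM in Control (log2 0.24 ± 0.04, adjusted p = 3.5e-05). NDUFB5, another membrane subunit of the distal arm, had 73.9, 74.8 and 79.5 CPM with miR-497-5p-RE and 61.4, 62.8 and 64.8 CPM in Control (log2 0.27 ± 0.05, adjusted p = 4.2e-05). For these 3 genes every miR-497-5p-RE library was above every Control library. NDUFC1, of the proximal membrane arm, had 40.2, 39.8 and 41.3 CPM with miR-497-5p-RE against 33.6, 32.9 and 31.6 CPM in Control, again without overlap (log2 0.31 ± 0.06, adjusted p = 7.7e-05).

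By place in the complex, 8 of 11 distal membrane arm subunits rose at 12 h, 5 of 9 accessory subunits of the proximal membrane arm and 5 of 9 of the peripheral arm. In the ubiquinone-reducing core NDUFS3 and NDUFS8 rose and NDUFS7 did not pass (adjusted p = 0.051). None of the 3 genes of the NADH-oxidising core passed. NDUFV1, which binds NADH and the flavin, had 262, 238 and 234 CPM with miR-497-5p-RE and 227, 232 and 224 CPM in Control (adjusted p = 0.068). NDUFS1, which carries iron-sulfur clusters, had 42.5, 39.9 and 39.5 CPM with miR-497-5p-RE, each just below the 42.8, 43.7 and 45.6 CPM of Control (adjusted p = 0.18). The number that rose was 15 without Control replicate 2 and 24 without miR-497-5p-RE replicate 2, the lowest and highest with 1 library of the arms left out. Of the 21, 11 stayed called in every setting run. With library totals, 15 members rose and 1, NDUFS1, fell, while the split over all genes went to 4.16% higher and 10.1% lower.

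In RNA-seq at 72 h, 26 of 36 members fell, 5 rose and 5 did not pass. Among all genes 29.6% fell and 27.9% rose, so changes in both directions were common in these cells. The members' median was -0.40 against 0.00 for all genes, and they ran from -1.06 to 0.53. Of the 36, 25 had every miR-497-5p-RE library below every Control library and 6 had every one above, against 32.2% and 31.6% of all genes. Of the 26 that fell, 25 stayed called in every setting run, the exception being NDUFA9. Of the mesothelial markers, 4 of 9 tested rose and 3 fell in RNA-seq at 72 h, with a median log2 value of -0.04. VIM (1.09), KRT19 (0.58) and KRT18 (0.25) were among the rises, and LRRN4 (-1.02), PDPN (-0.37) and MSLN (-0.13) were the falls. The summed level of the list, which follows its most abundant genes, was 6699 ± 20.9 CPM with miR-497-5p-RE and 4101 ± 16.2 CPM in Control (SD, n = 3 each), and its part in the members' values was not tested.

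The NADH-oxidising core was split. NDUFV1 (ENSG00000167792, GRCh38 chr11:67606852-67612535, plus strand) had 55.7, 55.1 and 54.6 CPM with miR-497-5p-RE and 102, 108 and 107 CPM in Control (log2 -0.94 ± 0.04, adjusted p = 2e-23). Its partner NDUFV2, which holds an iron-sulfur cluster beside the flavin, had 48.3, 47.4 and 48.5 CPM with miR-497-5p-RE and 38.3, 37.2 and 37.5 CPM in Control (log2 0.35 ± 0.06, adjusted p = 7e-07). NDUFS1 (ENSG00000023228, chr2:206114817-206159603, minus strand) had 41.5, 43.8 and 42.1 CPM with miR-497-5p-RE and 29.8, 30.6 and 28 CPM in Control, the largest rise of the 36 (log2 0.53 ± 0.06, adjusted p = 1e-10). The arms did not overlap for any of these 3 genes, so the flavin-bearing subunit was lower while its neighbours in the same module were higher. NDUFS1 shares 11.7% of its exonic bases with other annotated genes and NDUFV2 28.4%, while NDUFV1 shares none.

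All 3 genes of the ubiquinone-reducing core fell. NDUFS7, which holds the last iron-sulfur cluster before ubiquinone, had 28.7, 26.7 and 29.5 CPM with miR-497-5p-RE and 54.1, 58.6 and 58.8 CPM in Control (log2 -1.01 ± 0.06, adjusted p = 2.7e-19). NDUFS8, another iron-sulfur protein, had a log2 value of -0.64 ± 0.04 and NDUFS3 of -0.24 ± 0.05. NDUFS7 shares 49.1% of its exonic bases with 2 other annotated genes, the largest share among the members, and no source used here says how strand was used in counting.

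Among accessory subunits of the peripheral arm 6 of 9 fell and 1 rose. NDUFS6 (ENSG00000145494, chr5:1801400-1816605, plus strand), a zinc-binding subunit added late in assembly, had 150.1, 142 and 143 CPM with miR-497-5p-RE and 299, 301 and 311 CPM in Control, the largest fall of the 36 (log2 -1.06 ± 0.04, adjusted p = 2.1e-27). It shares no exonic base with another gene. NDUFA6 (-0.60), NDUFS4 (-0.43), a subunit needed to fasten the NADH-oxidising module, NDUFA2 (-0.32), NDUFA12 (-0.32) and NDUFA9 (-0.16, adjusted p = 0.043) also fell, with log2 values in brackets. NDUFV3 had 73.9, 71.1 and 67.8 CPM with miR-497-5p-RE against 63.3, 59.2 and 63.8 CPM in Control and rose without overlap (log2 0.19 ± 0.05, adjusted p = 0.00095), but it did not pass with library totals (adjusted p = 0.138). NDUFA5 and NDUFA7 did not pass.

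In the membrane arm, 7 of 9 accessory subunits of the proximal part and 8 of 11 of the distal part fell, with medians of -0.33 and -0.52. NDUFB9, of the LYR family like NDUFA6, had 145, 144 and 136 CPM with miR-497-5p-RE and 277, 287 and 282 CPM in Control (log2 -0.99 ± 0.04, adjusted p = 1.8e-27). NDUFB6 (-0.91), NDUFB11 (-0.72), NDUFA8 (-0.71) and NDUFB7 (-0.69) had the next lowest log2 values of this arm. NDUFS5, the most abundant member per kilobase, had 104, 109 and 105 CPM with miR-497-5p-RE and 158, 152 and 161 CPM in Control (log2 -0.56 ± 0.04, adjusted p = 1.2e-16). NDUFB7 had 78.4, 72.1 and 73.6 CPM with miR-497-5p-RE and 118, 118 and 124 CPM in Control.

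A few membrane arm genes went the other way. NDUFB5 had 42.2, 44.1 and 43.7 CPM with miR-497-5p-RE and 37.6, 38.7 and 39.5 CPM in Control, no library overlapping (log2 0.17 ± 0.05, adjusted p = 0.0051). It did not pass with library totals (adjusted p = 0.33) or without a filter on low counts (0.052). NDUFA10, which has the fold of a nucleoside kinase, rose by 0.13 on the log2 scale (adjusted p = 0.035). NDUFB1, NDUFB8 and NDUFC2 did not pass. NDUFAB1, the mitochondrial acyl carrier protein that also serves fatty acid synthesis, fell (log2 -0.61 ± 0.06). Of the 5 rises, those of NDUFS1 and NDUFV2 stayed called in every setting run.

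**Figure D2:**
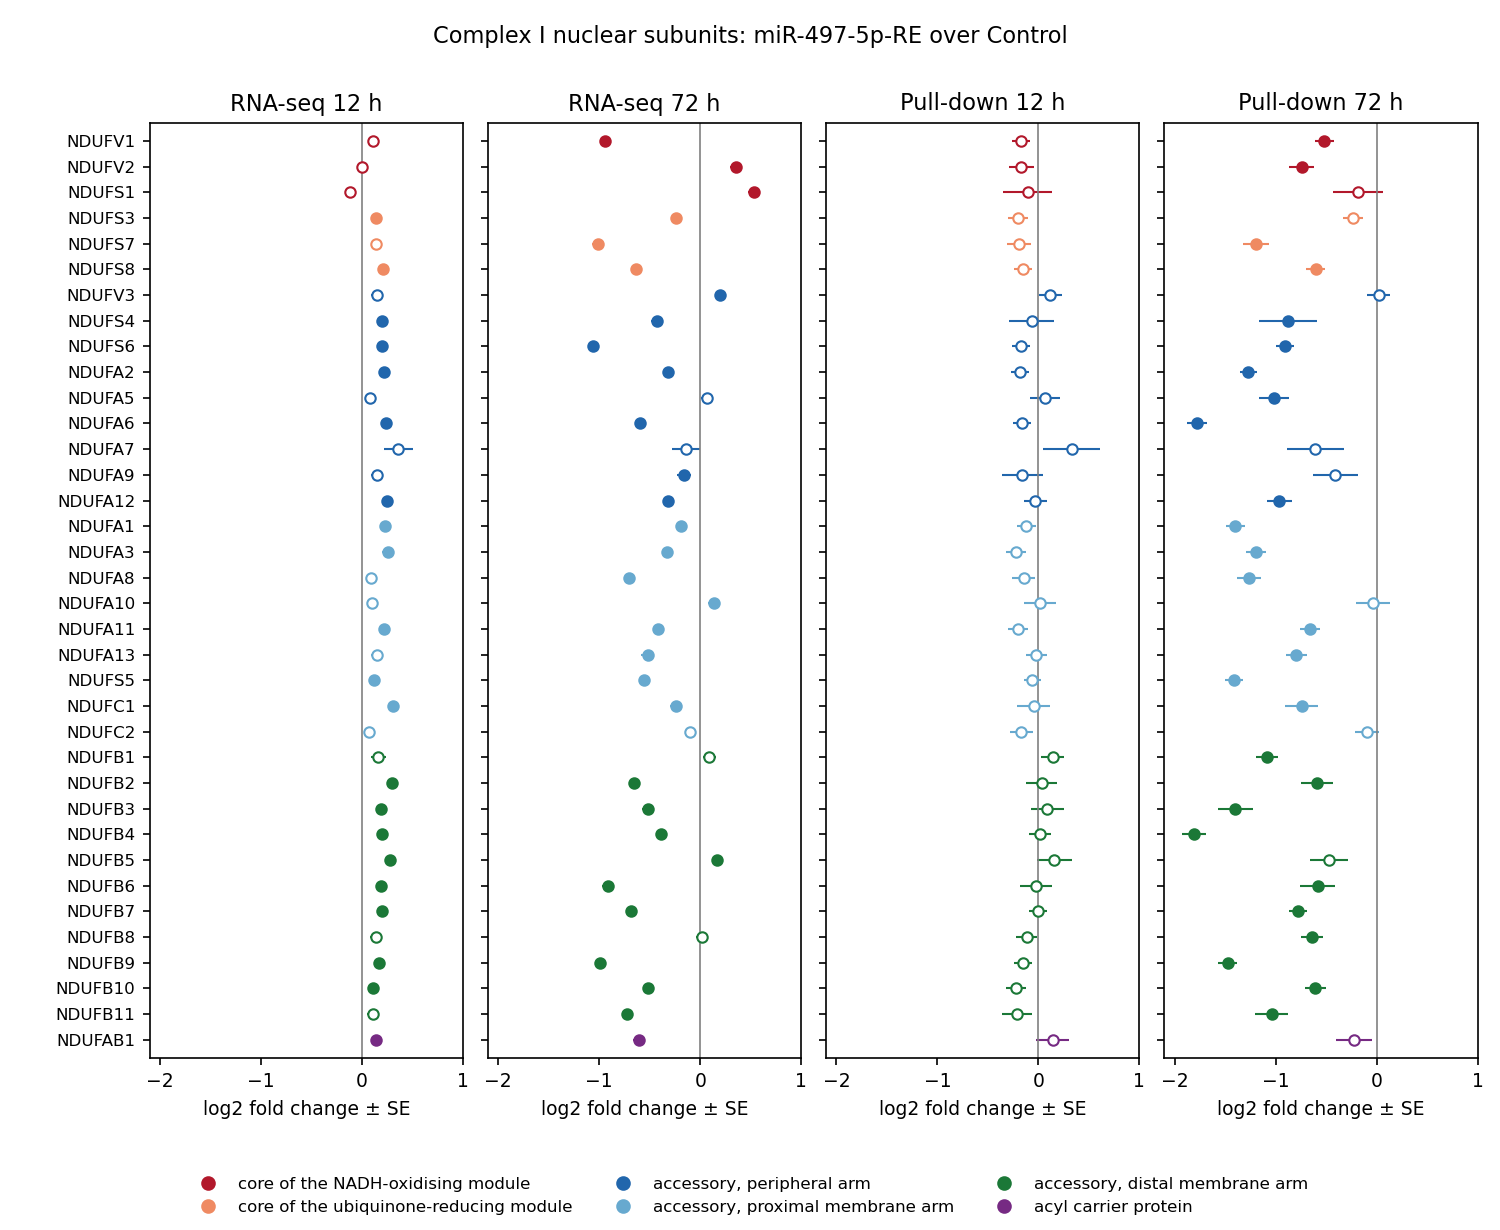
Log2 fold change, miR-497-5p-RE over Control, with the standard error of the edgeR fit, for the 36 members (rows, in colour by place in the complex) in the 4 comparisons (panels); filled points passed an adjusted p of 0.05 and open points did not. At 12 h in RNA-seq 21 points are filled, all to the right of 0; at 72 h 26 are filled to the left in RNA-seq and 27 in the Pull-down.

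The effect differed between the times for most members. In the fit over all RNA-seq libraries, the effect at 72 h minus that at 12 h was called below 0 for 28 members. It was called above 0 for 2, NDUFS1 and NDUFV2, and 6 did not pass. Among all genes 26.2% were called below 0 and 22.5% above. The members' median difference was -0.61, against -0.02 for all genes. NDUFS6 (-1.26 ± 0.05, adjusted p = 3.5e-24) and NDUFB9 (-1.16 ± 0.05, adjusted p = 4.7e-24) were among the lowest values. NDUFS1 (0.65 ± 0.08, adjusted p = 3.4e-09) and NDUFV2 (0.35 ± 0.08, adjusted p = 0.00026) were those called above 0. Of the members, 20 had both a called rise at 12 h and a called fall at 72 h, against 3.35% of all genes.

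In Control cells the levels themselves also moved with time, in ways that differed between genes. NDUFV1 had 102, 108 and 107 CPM in Control RNA-seq at 72 h and 227, 232 and 224 CPM at 12 h, without overlap. NDUFB9 had 277, 287 and 282 CPM in Control at 72 h and 281, 282 and 278 CPM at 12 h, and the times overlapped. These changes were not tested.

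At 12 h the members that later differed most gave other pictures. NDUFS6 had 289.9, 256 and 281 CPM with miR-497-5p-RE and 240.5, 239 and 243 CPM in Control at 12 h. NDUFB9 had 321, 303 and 319 CPM with miR-497-5p-RE and 281, 282 and 278 CPM in Control at 12 h. In both genes every miR-497-5p-RE library was the higher at 12 h. For NDUFV2 the 12 h libraries overlapped, at 33.1, 33.7 and 35.9 CPM with miR-497-5p-RE and 35.7, 34.3 and 32.7 CPM in Control.

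**Figure D3:**
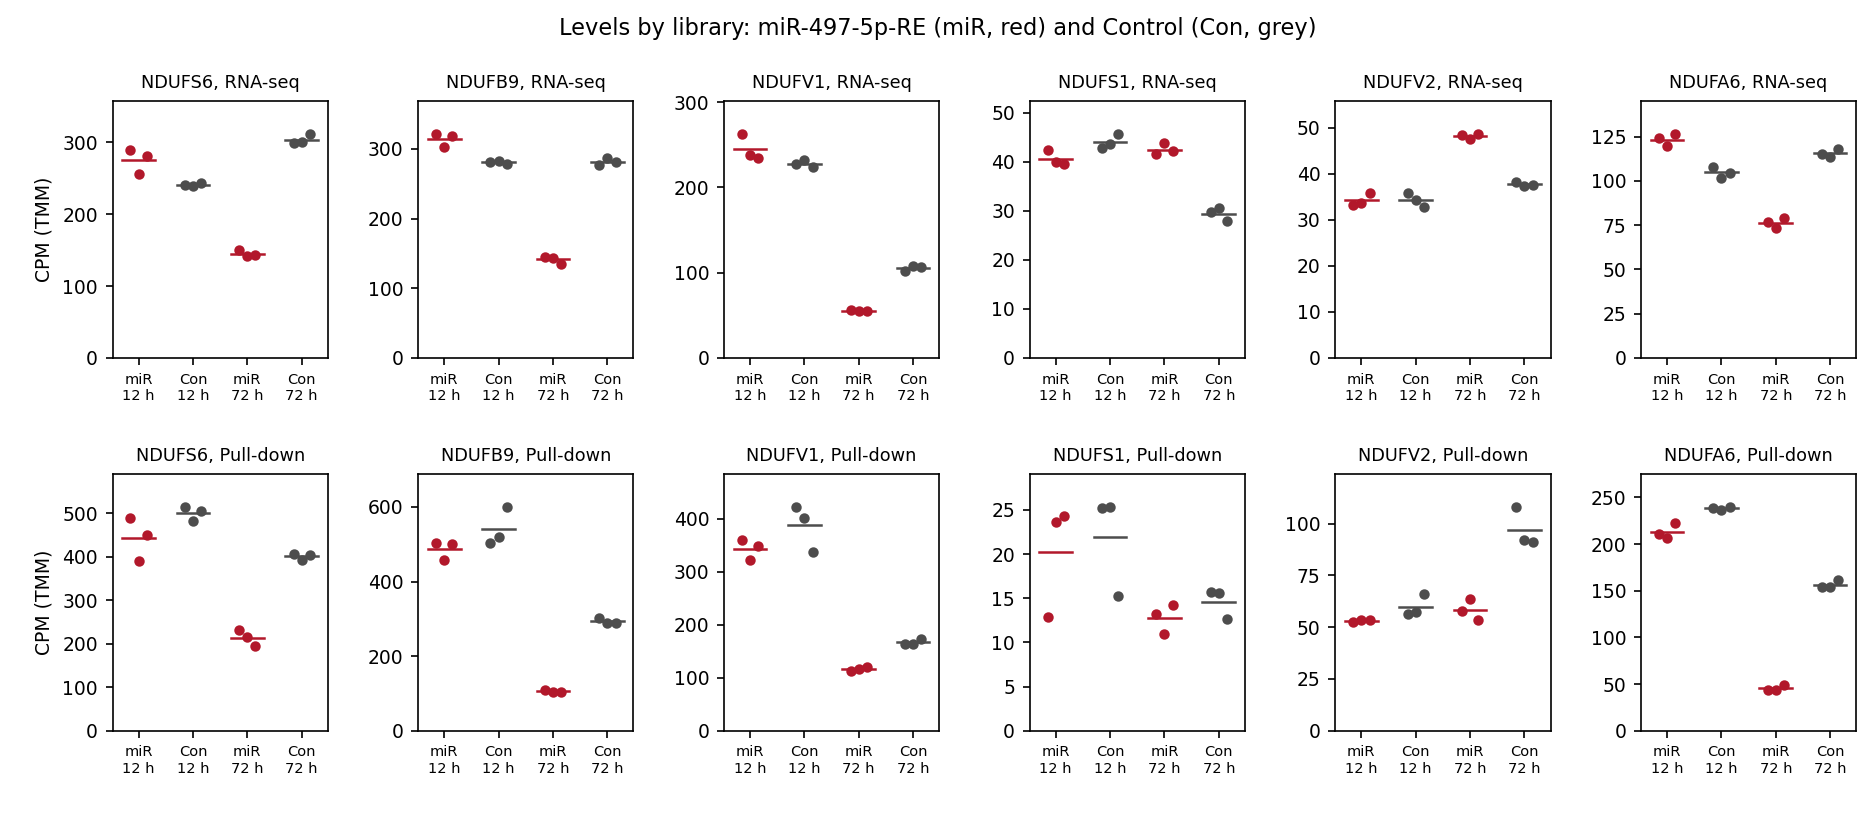
TMM-scaled CPM of 6 members in each library, in RNA-seq (upper row) and Pull-down (lower row); points are libraries and lines are means of 3, with miR-497-5p-RE in red and Control in grey. NDUFV1 sits at 55.7, 55.1 and 54.6 CPM with miR-497-5p-RE and 102, 108 and 107 CPM in Control RNA-seq at 72 h, and NDUFA6 at 43.7, 43.9 and 49.2 CPM with miR-497-5p-RE and 154, 154 and 161 CPM in the Control Pull-down at 72 h.

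In the Pull-down at 12 h no member was called in either direction by edgeR, none by DESeq2, and none with any 1 library left out. Among all 17477 genes tested, 0.326% rose and 0.269% fell in that comparison, so few calls were made for any genes. The members' median was -0.11 against -0.01 for all genes. It ran from -0.16 to -0.04 with 1 library left out, the value nearest 0 being that without miR-497-5p-RE replicate 1, and was -0.01 with library totals, where all genes had a median of 0.08. At an unadjusted p under 0.05 there were 3, NDUFA2 (-0.18), NDUFA3 (-0.22) and NDUFB10 (-0.22), named after their values were seen. Libraries did not overlap for 7 members, all with miR-497-5p-RE below, against 8.33% of all genes below and 8.11% above. NDUFV1 had 359, 322 and 349 CPM with miR-497-5p-RE and 421, 402 and 338 CPM in Control. NDUFS1 had 12.9, 23.6 and 24.3 CPM with miR-497-5p-RE and 25.2, 25.3 and 15.2 CPM in Control. Its low library in each arm was the one with the highest sum of squamous markers. This was seen after the values were known and was not tested. In RNA-seq at 12 h the miR-497-5p-RE library with the highest squamous sum had the highest NDUFS1 of its arm. In the Pull-down at 12 h the log2 value of NDUFS1 was -0.11, and 0.15 without miR-497-5p-RE replicate 1. The assay is meant to retain RNA bound by the mimic. No member was called higher in the miR-497-5p-RE Pull-down than in that of Control at 12 h or at 72 h, against 0.326% and 10.2% of all genes. With so few calls at 12 h, and the input of 26 members itself lower at 72 h, these counts cannot show whether the mimic bound a member.

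In the Pull-down at 72 h, 27 of 36 members fell, none rose and 9 did not pass, against 12.6% of all genes that fell and 10.2% that rose. The median was -0.76, against 0.00 for all genes, with a range from -1.80 to 0.02, and 13 members were called at least 2-fold lower, against 3.76% of all genes. Libraries of the arms did not overlap for 27 members, all with miR-497-5p-RE below, against 18.3% of all genes below. Of the 27 calls, 25 held in every setting run, the exceptions being NDUFB6 and NDUFS4, both at low levels in this assay. The distal membrane arm had 10 of 11 members called, and the single exception, NDUFB5, had an adjusted p of 0.073.

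NDUFA6 (ENSG00000184983, chr22:42085525-42090955, minus strand) had 43.7, 43.9 and 49.2 CPM in the miR-497-5p-RE Pull-down at 72 h and 154, 154 and 161 CPM in that of Control (log2 -1.78 ± 0.10, adjusted p = 1.1e-12). NDUFB4 (ENSG00000065518, chr3:120596309-120602500, plus strand), of the distal membrane arm, had 24.6, 24 and 27.5 CPM with miR-497-5p-RE and 78.2, 91.5 and 97 CPM in Control (log2 -1.80 ± 0.12, adjusted p = 2.7e-11). These were the lowest log2 values among the members, and in neither gene did any library overlap. NDUFB4 has 12 processed pseudogenes named after it in the annotation, so its counts are uncertain where reads match these copies as well.

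NDUFB9 had 108, 104 and 104 CPM with miR-497-5p-RE and 303, 289 and 288 CPM in Control (log2 -1.48 ± 0.09, adjusted p = 1.1e-11). NDUFS5 had 221, 218 and 232 CPM with miR-497-5p-RE and 597, 587 and 598 CPM in Control (log2 -1.41 ± 0.09, adjusted p = 1.2e-11), and it has 6 processed pseudogenes. Among the core subunits NDUFV1 passed and NDUFS1 did not. NDUFV1 had 113, 116 and 121 CPM with miR-497-5p-RE and 164, 163 and 173 CPM in Control (log2 -0.52 ± 0.09, adjusted p = 0.00019). NDUFS1 had 13.2, 10.9 and 14.3 CPM with miR-497-5p-RE and 15.7, 15.6 and 12.6 CPM in Control, overlapping arms that did not pass (log2 -0.18 ± 0.25, adjusted p = 0.68).

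Between the times, the Pull-down effect was called lower at 72 h than at 12 h for 22 members and higher for none. The other 14 did not pass. Among all genes 6.27% were called lower and 5.94% higher. The members' median difference was -0.75, against -0.03 for all genes. NDUFA6 (-1.61 ± 0.13, adjusted p = 5.8e-09) and NDUFB4 (-1.82 ± 0.16, adjusted p = 1.9e-08) led. At 12 h NDUFA6 had 210.4, 206 and 222 CPM with miR-497-5p-RE and 239, 237 and 239 CPM in Control. NDUFB4 had 144, 138 and 148 CPM with miR-497-5p-RE and 147, 147 and 130.1 CPM in Control at 12 h, and the arms overlapped. The levels in the Control Pull-down also changed with time: NDUFB4 averaged 88.9 ± 9.64 CPM at 72 h and 141 ± 9.83 CPM at 12 h (SD, n = 3 each). NDUFS4 averaged 4.36 ± 1.06 CPM at 72 h and 54.7 ± 4.99 CPM at 12 h there. NDUFB6 averaged 11.8 ± 1.51 CPM at 72 h and 59.6 ± 6.4 CPM at 12 h. With miR-497-5p-RE at 72 h they averaged 2.22 ± 1.48 CPM for NDUFS4 and 7.9 ± 0.513 CPM for NDUFB6, so both were scarce in the 72 h Pull-down of either arm.

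The fall in the Pull-down at 72 h can be set against the fall in the input by a test of the difference, Pull-down effect less RNA-seq effect. That test takes 1 spread per gene over both assays. Its common biological coefficient of variation at 72 h was 0.1752, between the 0.3491 of the Pull-down and the 0.06007 of RNA-seq. Its standard errors can thus be smaller than those of the Pull-down effect alone, as for NDUFS1 and NDUFV1. They may understate the spread of the Pull-down libraries. The difference was called below 0 for 17 members and above 0 for 1, with 18 not passing. Of all 16896 genes tested, 7.01% were called below 0 and 7.46% above. The median difference was -0.47, against 0.00 for all genes. At 12 h no member passed, against 0.357% of all genes below 0 and 0.984% above, while DESeq2's Wald test placed 8 members below 0 there, and 13 had an unadjusted p under 0.05 in edgeR.

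NDUFA1, a short membrane-spanning subunit, had 188, 188 and 191 CPM in the miR-497-5p-RE Pull-down and 520.1, 469.9 and 507 CPM in that of Control at 72 h. In RNA-seq it had 85.4, 82.1 and 79.4 CPM with miR-497-5p-RE and 97, 93.1 and 91.8 CPM in Control. Its fall was thus mostly in the Pull-down, with log2 effects of -1.40 there and -0.19 in RNA-seq and a tested difference of -1.23 ± 0.07 (adjusted p = 1.9e-09). NDUFA1 shares 44.5% of its exonic bases with RNF113A.

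NDUFA2, of the peripheral arm, had 252, 245 and 254 CPM in the miR-497-5p-RE Pull-down and 609.7, 606 and 594 CPM in that of Control. In RNA-seq at 72 h it had 137, 125 and 129 CPM with miR-497-5p-RE and 159, 163 and 165 CPM in Control (difference -0.97 ± 0.06, adjusted p = 4.5e-09). NDUFV1 was the member called above 0 (difference 0.40 ± 0.07, adjusted p = 0.0012), and it fell by 30.2% in the Pull-down and fell by 47.8% in RNA-seq. NDUFV2 had opposite calls in the assays, -0.74 in the Pull-down and 0.35 in RNA-seq, with 57.9, 63.6 and 53.2 CPM with miR-497-5p-RE and 108, 92.2 and 91.2 CPM in the Control Pull-down (difference -1.11 ± 0.12, adjusted p = 5.4e-06). NDUFS1 likewise was below 0 (difference -0.72 ± 0.17, adjusted p = 0.0081). Of the members, 23 fell in both assays at 72 h, against 10.8% of the 16383 genes tested in both. In the Pull-down without a call for a fall in RNA-seq 4 fell, NDUFA5, NDUFB1, NDUFB8 and NDUFV2, against 2.47% of those genes.

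**Figure D4:**
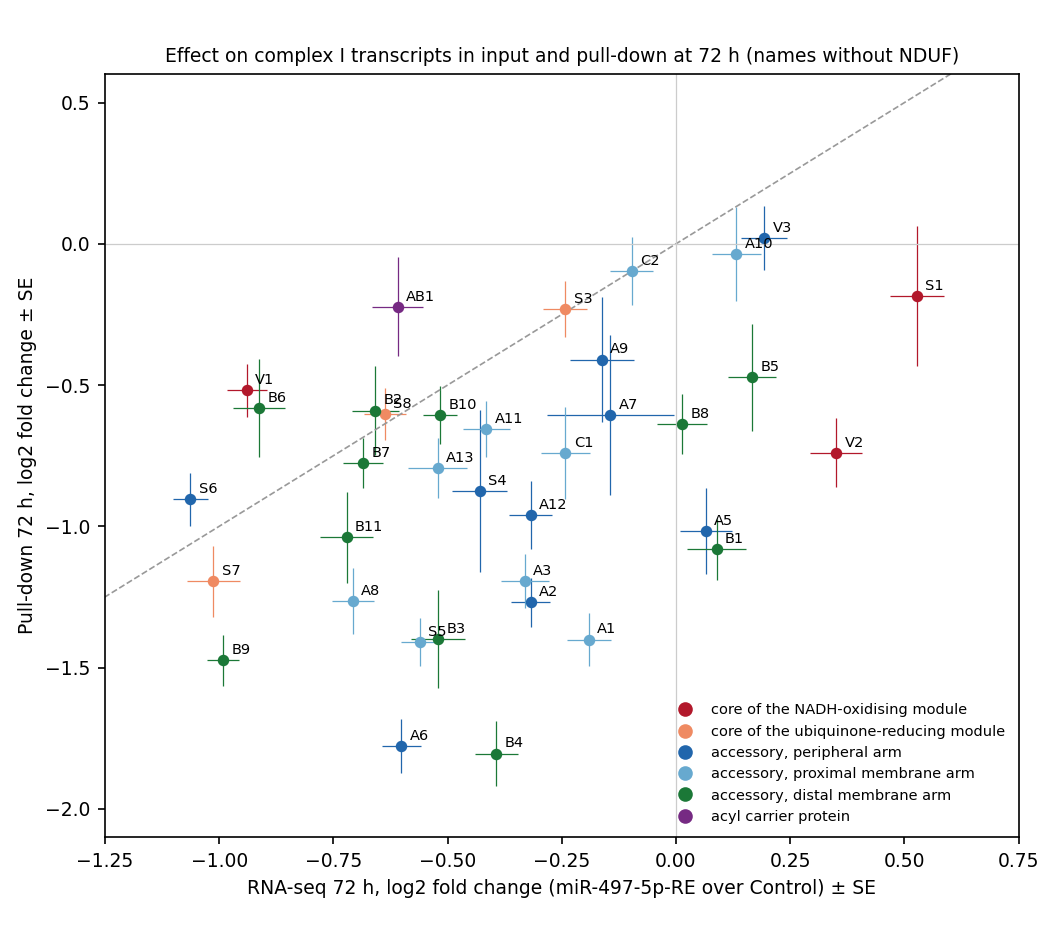
Log2 fold change at 72 h in RNA-seq (horizontal) and in the Pull-down (vertical) for the 36 members, with standard errors and with the dashed line where both are equal; names omit NDUF. Most points lie below the line, and NDUFV1, NDUFAB1, NDUFB6 and NDUFS6 are among the few above it; NDUFS1 and NDUFV2 are to the right of 0 and below the line.

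Across the 36 genes the effects at 72 h in the assays were loosely related, with Pearson's r of 0.39 and Spearman's rho of 0.36. This describes genes, which share libraries within each assay and are not independent. Shorter genes had lower values: the log2 exonic length had r of 0.41 with the RNA-seq effect and of 0.50 with the Pull-down effect at 72 h. The members' median exonic length was 2131 bases against 4375 for all genes tested in RNA-seq. With an offset for exonic length in the fit, 26 members still fell in RNA-seq at 72 h and 25 in the Pull-down, with medians of -0.36 and -0.67. The RNA-seq effect at 72 h also had r of -0.61 with the log2 level per exonic kilobase, which is computed from the same libraries.

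NDUFA7 had 5.57, 5.45 and 5.74 CPM with miR-497-5p-RE and 6.41, 6.49 and 5.62 CPM in Control at 72 h, a log2 value of -0.14 ± 0.14 whose error is the widest among the members in RNA-seq. It shares 33.5% of its exonic bases with RPS28 and 1 further annotated gene. NDUFA9, which binds NADPH, had 18.1, 15.9 and 16.5 CPM with miR-497-5p-RE and 19.1, 19.8 and 17.6 CPM in Control, overlapping arms at an adjusted p of 0.043. For the 16 members that share no exonic base with another gene, 10 rose at 12 h in RNA-seq, 11 fell and 3 rose at 72 h, and 12 fell in the Pull-down at 72 h. Among all genes tested in RNA-seq, 7.25% rose at 12 h, and 29.6% fell and 27.9% rose at 72 h. In the Pull-down at 72 h 12.6% of all genes fell.

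The mitochondrially encoded subunits moved apart from the nuclear ones. Of 7 genes, 6 rose in RNA-seq at 72 h, against 27.9% of all genes, and none fell, against 29.6%. Their median was 0.79, and MT-ND4L did not pass. MT-ND2 had 5934, 5905 and 6029 CPM with miR-497-5p-RE and 2847, 2695 and 2718 CPM in Control (log2 1.11 ± 0.03, adjusted p = 6.9e-31). MT-ND4 (0.79) and MT-ND1 (0.81) rose too, all core subunits of the membrane arm. Their summed level at 72 h was 42250.1 ± 552 CPM with miR-497-5p-RE and 24463 ± 693 CPM in Control (SD, n = 3 each), a ratio of 1.73. At 12 h 4 of the 7 rose, against 7.25% of all genes, and the ratio was 1.13. In the Pull-down at 72 h MT-ND3 rose (0.87) and the other 6 did not pass, against 10.2% of all genes that rose. At 72 h the summed levels of nuclear and mitochondrial subunits thus stood in opposite directions, in libraries whose mitochondrial genome took 8.511% to 8.8527% of counts with miR-497-5p-RE and 5.7499% to 6.009% in Control.

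Complex I assembly factors, which build the enzyme without being part of it, were counted in the same way. Of 19, 14 fell and 3 rose in RNA-seq at 72 h, against 29.6% and 27.9% of all genes, with a median of -0.35. At 12 h 6 rose and none fell, against 7.25% and 5.3% of all genes. In the Pull-down at 72 h 6 fell and none rose, against 12.6% and 10.2% of all genes. TMEM126B, of the complex that assembles the membrane arm, had 107, 109 and 107 CPM with miR-497-5p-RE and 75.5, 73.7 and 75.4 CPM in Control (log2 0.52, adjusted p = 1.8e-14). NDUFAF3, a factor for the ubiquinone-reducing module, had 126, 114 and 118 CPM with miR-497-5p-RE and 172, 173 and 175 CPM in Control (log2 -0.54, adjusted p = 2.4e-14), and TMEM70 had a log2 value of -0.65. NDUFA4, which carries a complex I name but belongs to cytochrome c oxidase, fell at 72 h in RNA-seq (-0.94) and in the Pull-down (-1.70). NDUFA4L2 stayed under 5 CPM on average in every group and did not pass.

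Of the transcriptional regulators of mitochondrial genes, 11 of 12 were tested in RNA-seq. None was called at 12 h, when 7.25% of all genes rose and 5.3% fell. At 72 h 7 fell and 2 rose, 63.6% and 18.2% of those tested, against 29.6% and 27.9% of all genes. ESRRA, a nuclear receptor for respiratory genes, had 94.3, 85.3 and 87.7 CPM with miR-497-5p-RE and 135, 141 and 135 CPM in Control (log2 -0.62, adjusted p = 5.3e-16). PPRC1, a coactivator of the PGC-1 family, had 22.3, 19.8 and 19.2 CPM with miR-497-5p-RE and 35.6, 34.4 and 35.1 CPM in Control (log2 -0.78, adjusted p = 7.5e-14). NRF1, a factor that binds promoters of respiratory genes, fell too (-0.73). The rises were those of YY1 (0.35), a zinc-finger factor, and GABPA (0.82), an ETS factor of respiratory promoters.

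Promoter sequence was searched for words of those factors. RefSeq windows of 300 bases around the annotated start were held for 32 of 36 members, all but NDUFS5, NDUFC2, NDUFB5 and NDUFB9. On either strand, the YY1 word ATGGCGG was present in 13 of 32 windows, 40.6%, against 5.7% of all 27305 windows and 9.7% of the 11262 windows of protein-coding genes tested in RNA-seq. In 10 of these 13 genes the word lies on the gene's strand, and in 8 its ATG is an annotated start codon. The word in those 8 genes is thus also coding sequence. Words on the opposite strand were not checked for overlap with a start codon. The NRF1 word GCATGCG was present in 5 windows, 15.6%, against 4.1% and 6.1%. The ETS word CCGGAAG of GABPA was present in 5, 15.6%, against 10.7% and 18.1%, and the Sp1 word GGGCGGG in 9, 28.1%, against 32.9% and 53.6%. A word is only a match of letters and does not show that a factor binds.

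The windows of the members with the largest fall and the largest rise in RNA-seq at 72 h are shown, 5′ to 3′ on the gene's strand, with NRF1, ETS and YY1 words in capitals.
NDUFS6, GRCh38.p14, chr5:1801157-1801456, plus strand: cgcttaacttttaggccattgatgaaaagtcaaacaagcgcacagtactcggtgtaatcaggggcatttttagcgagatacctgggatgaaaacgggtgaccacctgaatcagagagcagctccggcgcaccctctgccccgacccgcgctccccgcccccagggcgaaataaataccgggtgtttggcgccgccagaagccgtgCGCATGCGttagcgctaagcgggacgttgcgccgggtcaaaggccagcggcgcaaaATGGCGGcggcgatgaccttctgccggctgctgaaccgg
NDUFS1, GRCh38.p14, chr2:206159395-206159694, minus strand: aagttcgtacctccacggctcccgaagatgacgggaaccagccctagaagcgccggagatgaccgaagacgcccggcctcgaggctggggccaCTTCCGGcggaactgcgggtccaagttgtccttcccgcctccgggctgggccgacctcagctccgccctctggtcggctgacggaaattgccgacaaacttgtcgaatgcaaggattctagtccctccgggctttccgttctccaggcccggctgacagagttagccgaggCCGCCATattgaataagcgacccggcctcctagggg

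NDUFS6 holds an NRF1 word, palindromic in its core and so matched on both strands, 45 bases before the start and a YY1 word at its start codon. NDUFS1 holds an ETS word 157 bases before the start and a YY1 word on the opposite strand just after it, and no NRF1 word. The 5 members with an NRF1 word, NDUFS7, NDUFS6, NDUFA6, NDUFA8 and NDUFB4, had log2 values in RNA-seq at 72 h of -1.01, -1.06, -0.60, -0.71 and -0.39, and all 5 were called lower. Of all 36 members 26 were called lower in that comparison, and of all genes 29.6%. Members without the word fell as well, among them NDUFV1 and NDUFB6, so these values describe the 5 genes and no more.

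Of 15 squamous markers, 5 fell in RNA-seq at 12 h, against 5.3% of all genes. Their sums differed most between libraries at that time. None was called in RNA-seq at 72 h, when 29.6% of all genes fell and 27.9% rose. CRNN, CNFN and IVL had adjusted p of 0.37, 0.46 and 0.54 at 72 h, and CRNN was at 0 CPM in all 3 miR-497-5p-RE libraries. The squamous sum stayed under 8 CPM in the libraries of 72 h, and its part in the members' values was not tested.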

How the data were processed

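The authors deposited 1 table of raw read counts per gene for each library. Per the submitters' processing notes, which give neither roles nor order, the tools were Trimmomatic 0.36, STAR 2.5.2b and featureCounts of Subread 1.5.2, with GRCh38. Libraries were poly(A)-selected, per the labels' protocols. The members and gene lists were chosen with earlier results of these data known. Of 57500 identifiers, 98.1% matched GENCODE release 44, which gave names, exonic lengths and 3′ UTRs. The seed sites of 1 member are not reported here.

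The main test was the robust quasi-likelihood F test of edgeR 4.0.16 (R 4.3.3) with filterByExpr, TMM scaling and Benjamini-Hochberg adjustment over all genes tested (threshold 0.05), over the 12 libraries of an assay, or over the 12 of a time for Pull-down minus RNA-seq effects. DESeq2 1.42.0 was an alternative. The fit was tried on counts simulated within each assay with changes at 12 h, and no result here rests on that trial. It did not cover the Pull-down minus RNA-seq difference or the uneven squamous markers. Values in every library are given for up to 4 members per direction with the smallest adjusted p in a comparison and up to 2 in a contrast, the 3 most and 3 least abundant members, NDUFV1 and NDUFS1, and up to 3 genes of each other list. Further members were chosen after their values were seen. Between replicate libraries, chi-square per degree of freedom was 1.75 to 7.76 in RNA-seq and 6.76 to 29.3 in the Pull-down, so none was a duplicate. Depth was 8262425 to 30650982 counts. Same-numbered libraries did not deviate together throughout. In RNA-seq at 12 h their correlations were 0.0485, 0.0409 and 0.174, each the highest for its library. In RNA-seq at 72 h they were 0.00998, 0.0123 and 0.00154. In the Pull-down they ran from -0.0182 to 0.00664 at 12 h and from -0.0294 to -0.00506 at 72 h. Numbers were not taken as pairs, and counts with the number as a block are given below. Pairing of input with Pull-down libraries was not checked.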

Additional observations from a re-analysis of the deposited data

Results flagged for a closer look

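The effect of miR-497-5p-RE over Control differed between 12 h and 72 h by a test of the difference, in edgeR's fit with Benjamini-Hochberg adjustment, for 30 members in RNA-seq. It was lower at 72 h for 28 and higher for 2. NDUFS6 differed by -1.26 and NDUFB9 by -1.16 on the log2 scale, while NDUFS1 differed by 0.65 and NDUFV2 by 0.35. In the Pull-down it was called lower at 72 h for 22 members, with NDUFA6 at -1.61 and NDUFB4 at -1.82.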

How the results depend on the processing

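With library totals in place of TMM, 1 member fell in RNA-seq at 12 h (NDUFS1, -0.17, adjusted p = 0.034) and 2 in place of 5 rose at 72 h. For the Pull-down minus RNA-seq difference at 72 h, 2 members in place of 1 were called above 0. That scaling moved the median of all genes by 0.12 for this difference at 12 h and by 0.13 at 72 h. At 72 h 12.3% of all genes were then called above 0 and 4.42% below. In RNA-seq at 72 h it gave 22% higher and 35.4% lower over all genes, with 27 members lower. Without a filter on low counts 3 rose in RNA-seq at 72 h. Among single members, NDUFV3 had 0.09 (adjusted p = 0.138) and NDUFB5 0.06 (0.33) with library totals, and NDUFB5 0.14 (0.052) without the filter. For the Pull-down minus RNA-seq difference at 12 h, members called below 0 numbered 1 with DESeq2 size factors and 1 with a mean of at least 5 CPM. They numbered 8 by DESeq2's Wald test, and 0 to 3 with 1 library left out, the 3 without Pull-down miR-497-5p-RE replicate 1. At 72 h the members called above 0 were 1 to 2 with 1 library left out, the 2 without Pull-down miR-497-5p-RE replicate 3. NDUFS1 in the Pull-down at 12 h ranged from -0.30 to 0.15 with 1 library left out, and was 0.003 without Control replicate 1 and 0.005 without Control replicate 2. The cause of these changes was not tested. With 1 library left out, members that fell numbered 25 to 27 in RNA-seq and 25 to 28 in the Pull-down at 72 h. With the replicate number as a block, 22 rose in RNA-seq at 12 h, 5 rose and 25 fell at 72 h, and 27 fell in the Pull-down at 72 h. Each RNA-seq library at 12 h correlated best with its own number. At low levels the errors were wide, as for NDUFS4 in the Pull-down at 72 h (-0.88 ± 0.29).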
